A study of Mus musculus with 2 samples.

Results

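The glucocorticoid receptor and 9 genes around it were followed through sorted brain myeloid cells of mice given vehicle or corticosterone. The 10 genes were fixed by symbol: Nr3c1 and Nr3c2, which encode the glucocorticoid and the mineralocorticoid receptor, Hsd11b1, Fkbp5, Fkbp4, Tsc22d3, Sgk1, Klf9, Dusp1 and Sult1a1. All 10 were found among the 32589 features of both matrices. They were chosen with earlier results of these data known. Corticosterone, the main glucocorticoid of rodents, enters cells and binds either receptor. The bound glucocorticoid receptor leaves its heat shock protein complex, moves to the nucleus and binds DNA at paired half-sites, where it raises transcripts such as Tsc22d3, Fkbp5, Sgk1, Klf9 and Dusp1 in many cell types. In microglia and other macrophages it is best known for restraining inflammatory gene expression.

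The mice were C57BL/6, and corticosterone was delivered by gavage as a model of depression with excess glucocorticoid. Prefrontal cortex was digested with enzymes, and cells were sorted on low CD45 and positive CD11b, the usual surface gate for microglia. There was 1 library per group, named vehicle and corticosterone in the labels, while the deposited file names speak of wildtype and of depression. Files were read under the sample record that lists them. The sources used here do not give the dose, the duration, the time of day at collection, the sex or age of the mice, or how many animals were pooled. With 1 library per group no test between groups was possible, group and library preparation cannot be told apart, and all intervals below are 95% intervals for counting error.

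After filtering, the vehicle library held 10500 cells and the corticosterone library 17883, with median depths of 3220.5 and 3961 UMIs per cell, a UMI being a tag that counts each captured transcript 1 time. In all, 101 barcode sequences occurred in both libraries. Clusters were named from marker genes. Microglia-like cells numbered 7939 in vehicle and 15229 in corticosterone, border macrophage-like cells 1084 and 789, and neutrophil-like cells 418 and 397. Most vehicle microglia-like cells (7298) lay in cluster 1, and most corticosterone ones in clusters 0 (8845) and 2 (5380), so the libraries stood apart within that class. All 11 markers of each of these 3 classes were detected in the summed UMIs of all 3. Detection alone therefore does not tell the classes apart, and the clusters were named from these same markers. The smaller classes were not free of microglial RNA, and the amount differed between libraries. The summed level of 11 microglia markers in border macrophage-like cells was 86.0% of that in microglia-like cells in vehicle and 67.3% in corticosterone. In neutrophil-like cells it was 59.0% and 35.0%. The summed border macrophage markers in border macrophage-like cells stood at 3663 CPM in vehicle against 7528 CPM in corticosterone, and monocyte markers in neutrophil-like cells at 2834 and 7240 CPM. Within microglia-like cells, 5 of 11 microglia markers, 10 of 11 border macrophage markers (summed level 89.3 and 41.7 CPM) and 9 of 11 neutrophil markers (946 and 691 CPM) were lower by 1.5-fold in corticosterone. The part of these differences in the values of the 3 classes was not tested.

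Levels are given as CPM, the UMIs of a gene per 1e6 UMIs summed over a class of a library. A gene was counted as past the fold when its CPM, averaged over the libraries, reached 5 and differed by 1.5-fold or more. In microglia-like cells, 9 of the 10 genes reached that level, all but Hsd11b1. Klf9 and Sult1a1 were higher in corticosterone past 1.5-fold, against 5.9% of all 9674 genes at that level. Nr3c2, Tsc22d3 and Sgk1 were lower, against 6.55% of all genes. The median log2 ratio over the 9 genes was -0.03, and over all genes -0.01. The same 2 genes were higher and the same 3 lower in border macrophage-like cells, where 7.57% and 7.04% of 9745 genes were past the fold in those directions. In neutrophil-like cells 8 genes reached the level, of which Hsd11b1 was higher and Sgk1 lower, against 9.02% and 22.3% of 9579 genes. The receptor and its known targets thus did not share a direction. Among the induced transcripts named at the start, Tsc22d3 and Sgk1 were lower in corticosterone microglia-like cells, and Fkbp5 was near level. Klf9 and Dusp1 were higher there, Dusp1 short of 1.5-fold.

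**Figure D1:**
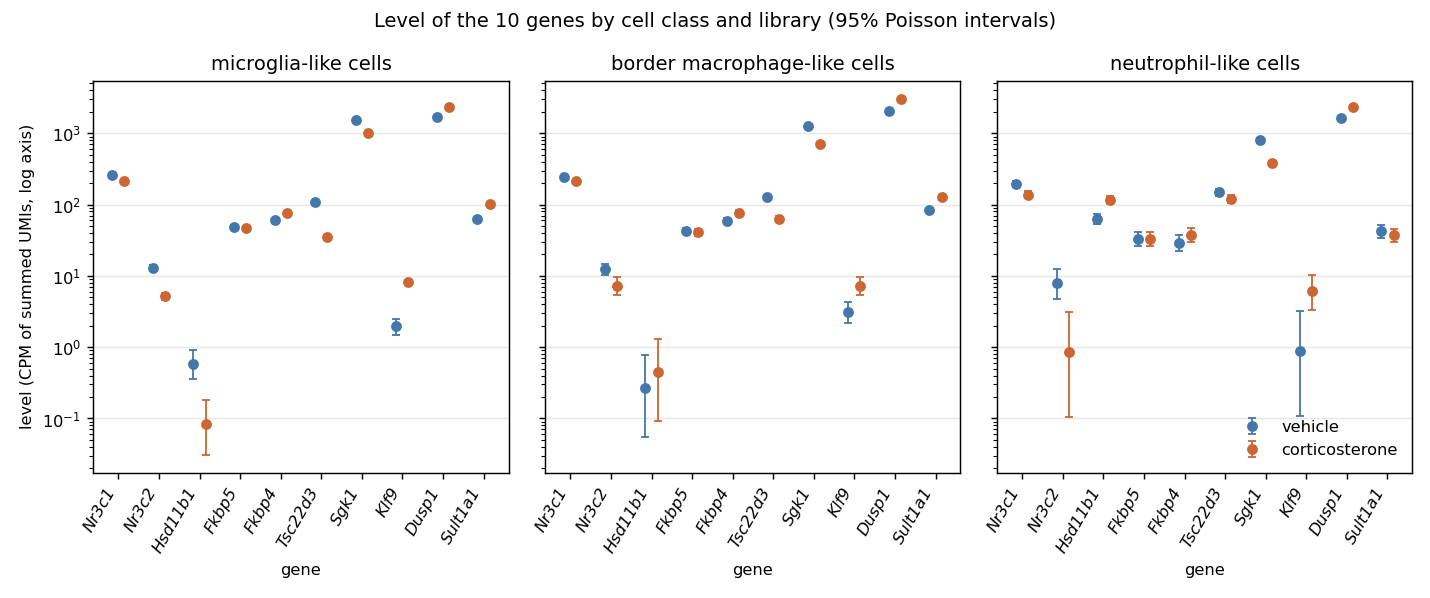
Level of the 10 genes (CPM of summed UMIs, log axis) in microglia-like, border macrophage-like and neutrophil-like cells, with 1 point per library (blue vehicle, orange corticosterone) and 95% Poisson intervals. Hsd11b1 lies under 1 CPM in the first pair of panels and at 62.5 and 116 CPM in neutrophil-like cells.

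Both receptor transcripts were lower in the corticosterone library. Nr3c1, the glucocorticoid receptor, stood at 263 CPM (258 to 269) in vehicle microglia-like cells and at 212 CPM (209 to 216) in corticosterone ones, a log2 ratio of -0.31 (-0.35 to -0.27). That is short of 1.5-fold. Its level in border macrophage-like cells was 245 CPM in vehicle against 212 CPM in corticosterone, and in neutrophil-like cells 195 CPM (177 to 214) and 137 CPM (122 to 153). With every cell drawn down to 1000 UMIs (thinning), 22.2% (21.3 to 23.2%) of vehicle and 18.5% (17.9 to 19.1%) of corticosterone microglia-like cells held a Nr3c1 UMI. Shares without thinning cover all cells of the class. They were 52.7% and 53.6%, but the median depth was 3172 UMIs in vehicle and 4000 in corticosterone cells of this class. Erythroid-like barcodes of the same libraries, with median depths of 2492.5 and 3808 UMIs, gave thinned shares of 19.8% (13.3 to 27.9%) and 11.3% (4.99 to 21.0%). These shares lay near those of microglia-like cells, so the level of a single barcode does not show that its cell made the transcript.

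Nr3c2, the mineralocorticoid receptor, which binds corticosterone more tightly than Nr3c1 does, was the scarcer transcript by UMIs (410 in vehicle and 368 in corticosterone microglia-like cells). It stood at 12.7 CPM (11.5 to 14.0) and 5.16 CPM (4.65 to 5.72), a log2 ratio of -1.30 (-1.51 to -1.09). Border macrophage-like cells gave 12.4 and 7.25 CPM, a log2 ratio of -0.77 (-1.27 to -0.29). In neutrophil-like cells 18 UMIs were found in vehicle and 2 in corticosterone, a log2 ratio of -3.20 with a counting interval from -6.35 to -1.14. In neutrophil-like cells of 2000 to 5000 UMIs the direction turned, at 1.21. Its highest level lay outside the named classes, in cluster 4. These barcodes, with a median of 1196 UMIs, were left unnamed, and Nr3c2 stood there at 88.1 CPM in vehicle against 68.1 CPM in corticosterone.

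Hsd11b1 encodes the enzyme that regenerates corticosterone from its inert 11-keto form inside cells, and of the 3 main classes it was found mostly in neutrophil-like cells. It stood at 62.5 CPM (52.6 to 73.7, 142 UMIs) in vehicle neutrophil-like cells and at 116 CPM (103 to 131, 269 UMIs) in corticosterone ones. In microglia-like cells only 19 and 6 UMIs were found, or 0.590 CPM (0.355 to 0.921) and 0.0842 CPM (0.0309 to 0.183), so neutrophil-like cells were 106 and 1377 times as high. Border macrophage-like cells held 3 UMIs in each library, and erythroid-like barcodes held 0 of 469396 and 0 of 371649 UMIs. Endothelial-like cluster 10, of 36 and 20 cells, stood between, at 19.1 CPM (7.0 to 41.5, 6 UMIs) and 33.2 CPM (6.84 to 96.9, 3 UMIs), as did monocyte-like cells at 5.41 and 7.36 CPM. The microglial RNA in neutrophil-like barcodes therefore brings almost none of this transcript with it.

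The difference between libraries within neutrophil-like cells was less firm. The log2 ratio was 0.89 (0.59 to 1.20), but the share of neutrophil-like cells with a UMI at 1000 UMIs was 7.76% (5.13 to 11.2%) in vehicle and 5.64% (3.57 to 8.42%) in corticosterone, against 19.9% and 27.2% without thinning. The thinned shares leave out 83 vehicle and 7 corticosterone neutrophil-like cells under 1000 UMIs. The shares at fixed depth go against the CPM, so no order is read from them. A finer clustering gave a pair of neutrophil-like clusters. They held 486 vehicle and 399 corticosterone cells in all, against 418 and 397 in the class, so they are not exact parts of it. Cluster 8 of that clustering, where Hsd11b1 stood at 118 CPM in vehicle against 225 CPM in corticosterone, held 285 vehicle and 128 corticosterone cells. Cluster 7 held 201 and 271 cells, with Hsd11b1 at 8.33 and 17.1 CPM. The log2 ratio was 0.93 (0.63 to 1.24) in cluster 8 and 1.04 (-0.08 to 2.24) in cluster 7. With each cell weighted equally it was 0.24, and in cells of 2000 to 5000 UMIs it was -0.28. The summed level of the 11 neutrophil markers moved too, from 133734 CPM in vehicle to 180428 CPM in corticosterone, and its part in the Hsd11b1 difference was not tested.

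Fkbp5 and Fkbp4 encode immunophilins that take turns in the receptor complex. FKBP51, the product of Fkbp5, lowers the affinity of the receptor for hormone and is itself induced by it, while FKBP52, the product of Fkbp4, favours transport to the nucleus. Fkbp5 stood at 48.6 CPM (46.2 to 51.1) in vehicle against 47.5 CPM (45.9 to 49.1) in corticosterone microglia-like cells, a log2 ratio of -0.03 (-0.12 to 0.05). In border macrophage-like cells the ratio was -0.07 (-0.29 to 0.14), and in neutrophil-like cells 0.01 (-0.47 to 0.49). All 3 intervals hold 0, and in microglia-like cells the interval leaves no room for a 1.5-fold difference between these libraries from counting error alone. Fkbp4 was higher in corticosterone, at 60.2 CPM (57.6 to 62.9) against 76.3 CPM (74.3 to 78.4), a log2 ratio of 0.34 (0.27 to 0.42) that is short of 1.5-fold. The ratio in border macrophage-like cells was 0.38 (0.22 to 0.55), close to that in microglia-like cells. In neutrophil-like cells it was 0.37 (-0.11 to 0.85), with 0.83 (0.26 to 1.41) in cluster 7 and -0.96 (-1.92 to -0.06) in cluster 8 of a finer clustering.

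Around these immunophilins, 15 chaperones and cochaperones that fold the receptor were all above 5 CPM in microglia-like cells. Their median log2 ratio was 0.21. Past 1.5-fold, 1 of 15 was higher (Hspa8) and 1 lower (Dnajb1), near the shares of all genes, 5.9% and 6.55%. Hspa8, the constitutive heat shock protein of the complex, went from 1237 to 1954 CPM, a log2 ratio of 0.66 (0.64 to 0.68). Dnajb1, an inducible cochaperone, went from 327 to 212 CPM, a log2 ratio of -0.62 (-0.66 to -0.59). Of 15 coregulators that the receptor recruits, 0 were past 1.5-fold, against the same shares of all genes. They ranged from Ncoa2 at -0.40 to Hdac3 at 0.42 with a median of -0.09. The enzymes and transporters that inactivate, rebuild or export steroids were mostly scarce, with 4 of 12 above 5 CPM. These ranged from Srd5a3 at -0.18 to H6pd, which supplies the cofactor of the Hsd11b1 enzyme, at -0.02.

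Tsc22d3 encodes GILZ, a leucine zipper protein that restrains NF-kB and AP-1 and is among the most widely used glucocorticoid markers. Its gene lies on chromosome X from 140539528 to 140600659 on the minus strand (GRCm38, GENCODE annotation). It stood at 108 CPM (104 to 112) in vehicle microglia-like cells and 34.9 CPM (33.6 to 36.3) in corticosterone ones, 3.09-fold lower in corticosterone. The log2 ratio was -1.63 (-1.70 to -1.55) in microglia-like cells, -1.02 (-1.18 to -0.86) in border macrophage-like cells (127 and 62.7 CPM), and -0.30 (-0.53 to -0.06) in neutrophil-like cells (148 and 120 CPM). The 3 counting intervals do not overlap. With each cell weighted equally the neutrophil-like value was -0.03. Whether the classes differ beyond library preparation cannot be tested with 1 library per group. Within the corticosterone library, Tsc22d3 was 3.44 times as high in neutrophil-like as in microglia-like cells, against 1.37 times within vehicle. At 1000 UMIs, 9.53% (8.87 to 10.2%) of vehicle and 3.51% (3.22 to 3.81%) of corticosterone microglia-like cells held a UMI, against 26.5% and 11.6% without thinning. The erythroid-like barcodes gave 11.1% (6.21 to 17.9%), and 0 of 71 in corticosterone, which allows a share of up to 4.23% by a limit of 3 counts and has a Clopper-Pearson upper bound of 5.06%. Without thinning, 14.1% of vehicle and 15.1% of corticosterone erythroid-like barcodes held a UMI. Their levels were 53.3 CPM (34.5 to 78.6) and 35.0 CPM (18.6 to 59.8), so in corticosterone the transcript stood near its level in microglia-like cells. With only microglia-like cells that held no UMI of a border macrophage or neutrophil marker (844 and 1319 cells), the log2 ratio was -1.17.

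Sgk1 encodes a serine/threonine kinase that regulates ion transport and stress survival and that both steroid receptors induce. It stood at 1539 CPM (1525 to 1553) in vehicle against 1004 CPM (997 to 1011) in corticosterone microglia-like cells, a log2 ratio of -0.62 (-0.63 to -0.60). The 1.53-fold difference lies just past the threshold, and under DESeq2 size factors, which put the median of all genes at 0.10, the ratio was -0.50. At a finer clustering, where a cluster of 5146 vehicle cells was left unnamed, the ratio was -0.26, and with that cluster added back it was -0.61. Sgk1 was the member that was lower past 1.5-fold in all 3 classes, at 1276 and 701 CPM in border macrophage-like cells and 814 and 385 CPM in neutrophil-like cells. The log2 ratios there were -0.86 (-0.91 to -0.82) and -1.08 (-1.20 to -0.97). At 1000 UMIs, 66.1% (65.0 to 67.2%) of vehicle and 48.0% (47.2 to 48.8%) of corticosterone microglia-like cells held a UMI, against 85.6% and 77.5% without thinning. Erythroid-like barcodes gave 61.1% and 46.5% at 1000 UMIs. The DNA before one Sgk1 start is shown because it holds a full palindrome of the receptor. The 250 bases before each start were searched on both strands in RefSeq promoters of GRCm38.p6. For the 10 genes, 16 starts of 9 genes were read, and Nr3c1 was left out. The full palindrome, AGAACA and TGTTCT spaced by 3 bases, was found before 3 of 32851 starts in all (0.00913%), of which 1 is the fifth of 6 Sgk1 starts, at chr10:21993701-21993715, 965 bases before the sixth. The looser core ACANNNTGT, which the full palindrome contains, lay before 5.84% of all starts and, among the 16, before the second and the fifth Sgk1 start only. The window before the fifth start, chr10:21993640-21993889 on the plus strand, is shown with matches in capitals, an E-box (CACGTG) and then the palindrome:
Sgk1: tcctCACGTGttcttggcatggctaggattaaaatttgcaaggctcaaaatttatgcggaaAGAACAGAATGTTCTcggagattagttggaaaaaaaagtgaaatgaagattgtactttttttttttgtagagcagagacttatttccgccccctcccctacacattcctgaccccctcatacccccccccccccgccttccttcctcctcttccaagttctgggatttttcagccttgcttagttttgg
The libraries do not say which start gave the UMIs, and a match of letters is not a bound site.

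Klf9 encodes a Krüppel-like zinc finger factor that glucocorticoids induce directly in brain and liver. It was scarce, and its level was higher in corticosterone in all 3 classes. Microglia-like cells held 63 UMIs in vehicle and 576 in corticosterone, or 1.96 CPM (1.5 to 2.50) and 8.08 CPM (7.44 to 8.77), a log2 ratio of 2.05 (1.67 to 2.45). Border macrophage-like cells stood at 3.12 CPM (2.17 to 4.34) and 7.25 CPM (5.36 to 9.59), a log2 ratio of 1.22 (0.56 to 1.89). Neutrophil-like cells held 2 and 14 UMIs, a log2 ratio of 2.78 with a counting interval from 0.66 to 5.96. Thinned shares of microglia-like cells with a UMI were 0.205% (0.115 to 0.338%) and 0.681% (0.556 to 0.825%), and 0.705% and 3.16% without thinning. No erythroid-like barcode held one at 1000 UMIs, which by the limit of 3 counts allows up to 2.38% of 126 vehicle and 4.23% of 71 corticosterone barcodes (Clopper-Pearson upper bounds 2.89% and 5.06%). Its paralogues did not share the direction. Klf10 and Klf11 were lower past 1.5-fold, at -0.78 and -0.79, and Klf13 and Klf16 stood at 0.16 and 0.03. The window before its start (chr19:23140976-23141225, plus strand) is shown because Klf9 was the member highest over vehicle, and it holds none of the motifs searched, which were the 2 receptor motifs, the E-box, the cyclic AMP response element TGACGTCA and the clock output motifs TTATGTAA (before 0.819% of all starts) and TTACGTAA (0.113%):
Klf9: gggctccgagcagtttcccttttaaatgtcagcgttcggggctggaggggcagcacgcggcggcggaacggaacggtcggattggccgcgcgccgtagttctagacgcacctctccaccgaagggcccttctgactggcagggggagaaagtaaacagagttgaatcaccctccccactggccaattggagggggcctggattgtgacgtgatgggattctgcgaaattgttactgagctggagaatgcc

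Dusp1 encodes a phosphatase that switches off p38 and JNK, and both glucocorticoids and cell stress induce it. It was the most abundant of the 10 by UMIs, at 1715 CPM (1700 to 1729) in vehicle against 2356 CPM (2345 to 2367) in corticosterone microglia-like cells. The log2 ratio was 0.46 (0.44 to 0.47) in microglia-like, 0.53 (0.50 to 0.55) in border macrophage-like and 0.54 (0.48 to 0.60) in neutrophil-like cells. All 3 are short of 1.5-fold. At the finer clustering the neutrophil-like clusters went opposite ways, with 2169 and 3773 CPM in cluster 7 and 1064 and 788 CPM in cluster 8, where the log2 ratio was -0.43. At 1000 UMIs, 71.4% (70.3 to 72.4%) and 74.1% (73.4 to 74.8%) of microglia-like cells held a UMI, against 88.6% and 92.3% without thinning and 62.7% and 83.1% in erythroid-like barcodes. Other phosphatases of its family went another way, with Dusp2 at -0.68 and Dusp5 at -1.33, while Dusp6 stood at -0.02. Dusp1 was detected beside Fos, an early response gene. In corticosterone cells 76.3% (75.6 to 77.0%) of those with a Fos UMI and 51.8% (49.1 to 54.5%) of those without held Dusp1, and in vehicle 72.0% and 55.5%. Its annotation overlaps Ergic1 on the other strand, with 1310 and 3313 UMIs in microglia-like cells, and whether counting used strand is not given in the sources used here. Before its start lie a cyclic AMP response element (TGACGTCA, before 1.55% of all starts) and an E-box (CACGTG, 6.02%), in capitals in the part of the window outside annotated exons (chr17:26508520-26508722, minus strand):
Dusp1: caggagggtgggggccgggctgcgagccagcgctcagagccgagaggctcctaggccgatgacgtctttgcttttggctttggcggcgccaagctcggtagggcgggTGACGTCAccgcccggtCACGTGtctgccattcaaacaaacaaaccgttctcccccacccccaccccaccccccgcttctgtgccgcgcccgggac

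Sult1a1 encodes a phenol sulfotransferase that glucocorticoids raise in liver. It was higher in corticosterone in microglia-like cells, at 62.5 CPM (59.8 to 65.3) and 102 CPM (99.4 to 104), a log2 ratio of 0.70 (0.63 to 0.78). In border macrophage-like cells it stood at 83.4 and 127 CPM, a log2 ratio of 0.61 (0.47 to 0.74). Neutrophil-like cells gave 42.3 CPM (34.2 to 51.6) and 37.1 CPM (29.7 to 45.8), a log2 ratio of -0.19 (-0.63 to 0.25) whose interval lies below the other 2. In the finer clustering the ratio was 0.23 (-0.27 to 0.74) in neutrophil-like cluster 7 and -1.22 (-2.19 to -0.32) in cluster 8. The interval in cluster 7 holds the microglia-like and border macrophage-like values. At 1000 UMIs, 5.58% (5.07 to 6.13%) of vehicle and 9.20% (8.74 to 9.67%) of corticosterone microglia-like cells held a UMI, against 18.5% and 32.4% without thinning and 6.35% and 9.86% in erythroid-like barcodes. The gene overlaps Sgf29 on the other strand (737 and 1966 UMIs), so without knowledge of strand use its reads are uncertain.

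**Figure D2:**
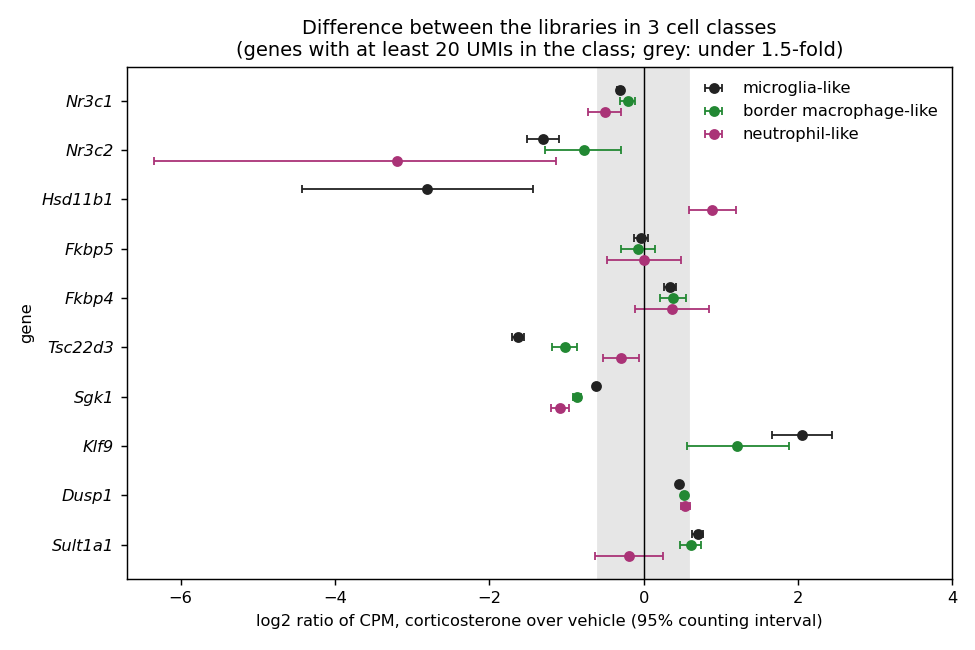
Log2 ratio of CPM, corticosterone over vehicle, for each gene with at least 20 UMIs in a class, with 95% counting intervals and differences under 1.5-fold in grey. Tsc22d3 lies at -1.63, -1.02 and -0.30 in the 3 classes, while Dusp1 lies between 0.46 and 0.54.

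The direction of several genes was the same in clusters of very different make-up. Of the clusters, 10 held at least 40 cells of each library, and vehicle and corticosterone cells were compared within each. Tsc22d3 was lower in corticosterone in 10 of 10, with intervals apart in 7. In cluster 1, where vehicle cells dominate, the 259 corticosterone cells stood at 53.5 CPM (40.1 to 70.0) and the 7298 vehicle cells at 108 CPM. In cluster 0, where corticosterone cells dominate, the 146 vehicle cells stood at 144 CPM (113 to 181) and the 8845 corticosterone cells at 32.9 CPM. In these microglia-like clusters Tsc22d3 differed between the libraries whichever library dominated. In neutrophil-like cluster 5 it differed less, at -0.30 (-0.53 to -0.06). Erythroid-like cluster 8 stood at -0.61 (-1.70 to 0.41), from 25 vehicle and 13 corticosterone UMIs. Unnamed cluster 9 stood at -0.15, from 7 and 12 UMIs. The UMIs of clusters 8 and 9 are too few to tell whether Tsc22d3 differed less there. Nr3c1 was lower in 10 of 10, with intervals apart in 5. Nr3c2 was also lower in 10, with intervals apart in 3. Sgk1 was lower in 9 of 10, with intervals apart in 9. The exception was cluster 9, led by Spp1 and Lpl and left unnamed, at 1369 CPM (1215 to 1537) in vehicle against 1609 CPM (1486 to 1738) in corticosterone. For Sgk1 the differences inside the 3 main microglia-like clusters were smaller than over the class. They were -0.16 in cluster 0 (1242 and 1109 CPM), -0.28 in cluster 1 (1565 and 1285 CPM) and -0.19 in cluster 2 (855 and 752 CPM), none of them near 1.5-fold. Klf9 was higher in 10 of 10, with intervals apart in 5, and Dusp1 in 9 of 10, with intervals apart in 9. For Klf9 the vehicle cells held 0 UMIs in clusters 0, 6 and 9 and 1 in each of clusters 2 and 8. In clusters 0 and 2 its lower bounds in corticosterone, 7.55 and 6.78 CPM, barely passed the upper bounds in vehicle, 7.17 and 6.76 CPM. Fkbp5 was higher in 7 and lower in 3, with intervals apart in 2, both higher. These were cluster 1, at 48.5 CPM (46.1 to 51.1) in vehicle against 69.7 CPM (54.2 to 88.2), and cluster 4, at 65.7 CPM against 99.8 CPM. Fkbp4 was higher in 9 and lower in 1, with intervals apart in 1. Sult1a1 was higher in 8 and lower in 2, with intervals apart in 3. In microglia-like clusters 0, 1, 2 and 6 the Sult1a1 log2 ratios were uneven, at 0.22, 1.12, 0.44 and -0.22. The vehicle interval in cluster 0, 62.2 to 115 CPM, holds the corticosterone level of 99.9 CPM. The clusters of a library share its preparation and, as shown above, some of its RNA, so they are not replicates.

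**Figure D3:**
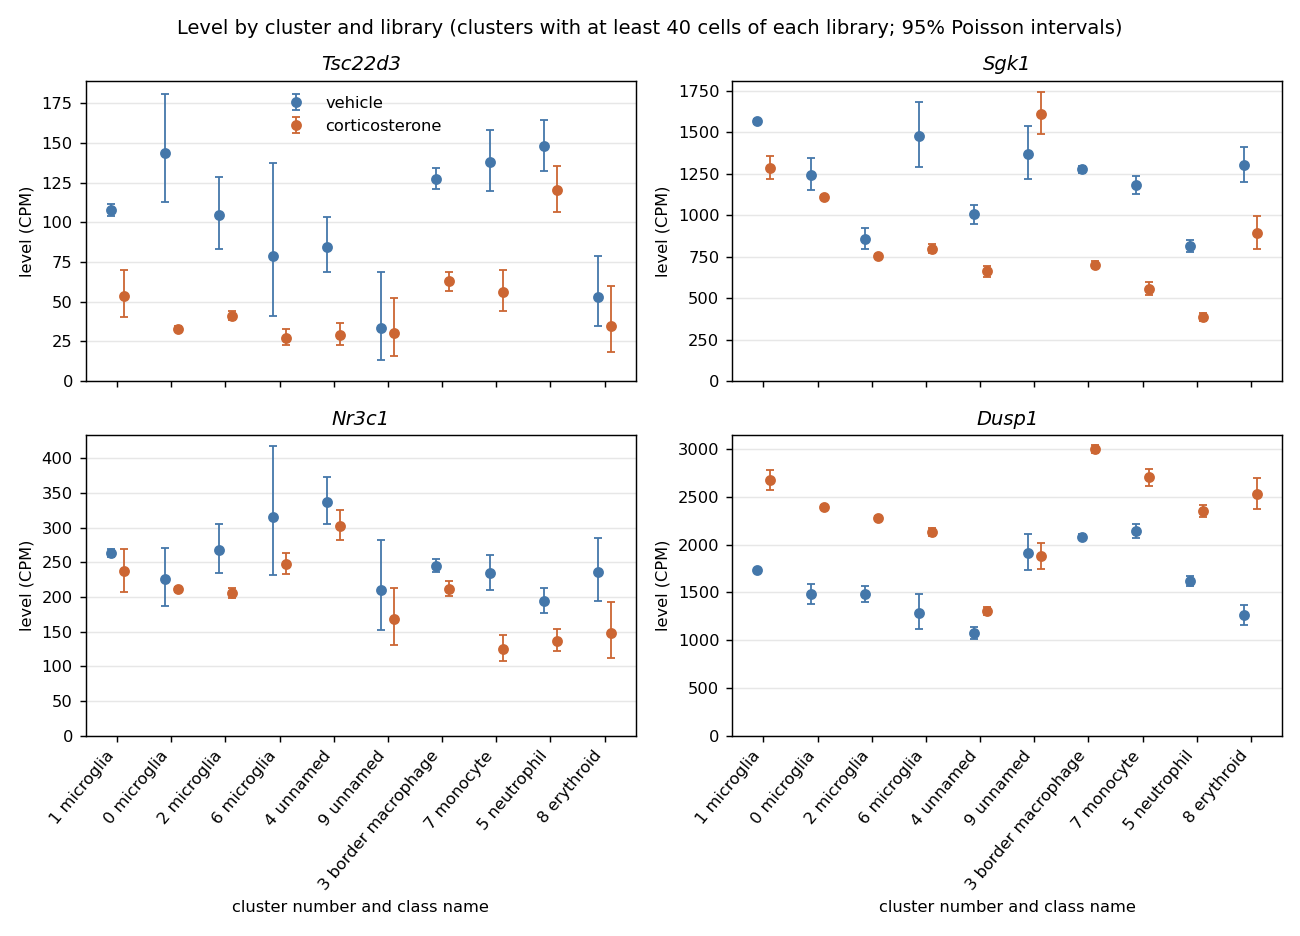
Level (CPM, with 95% Poisson intervals) of Tsc22d3, Sgk1, Nr3c1 and Dusp1 in the 10 clusters with at least 40 cells of each library, blue for vehicle and orange for corticosterone. Orange lies below blue in 10 clusters for Tsc22d3 and Nr3c1 and in 9 for Sgk1, and above it in 9 for Dusp1.

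Other genes of the pathway were counted in the same way, against the shares of all genes given above (5.9% higher and 6.55% lower in microglia-like cells). Of 30 other genes that glucocorticoids induce, 19 reached 5 CPM in microglia-like cells. Tgm2 and Plin2 were higher past 1.5-fold, and Per1, Cdkn1a, Anxa1 and Rgs2 were lower, with a median log2 ratio of -0.09. Tgm2, a transglutaminase of macrophages, was highest at 0.84 (0.77 to 0.91), and Anxa1, an anti-inflammatory protein that glucocorticoids release, was lowest at -1.20 (-1.46 to -0.94). In neutrophil-like cells Anxa1 was higher past 1.5-fold, and it was a leading gene of neutrophil-like cluster 8 of the finer clustering. Summed neutrophil markers in microglia-like cells were lower too, at 946 and 691 CPM, and their part in the Anxa1 value was not tested. Per1, a clock gene with a receptor site, went from 74.8 to 33.2 CPM. Nfkbia, the inhibitor of NF-kB, and Zfp36, which destabilises cytokine transcripts, stood at -0.17 and -0.27. In border macrophage-like cells 3 of 19 induced genes were higher (Mt2, Plin2 and Cd163) and 2 lower, with a median of -0.15. Of all genes there, 7.57% were higher and 7.04% lower. In neutrophil-like cells 6 of 22 were higher and 6 lower, with a median of -0.07, against 9.02% and 22.3% of all genes. Of 17 inflammatory genes that glucocorticoids repress, 14 reached 5 CPM, 6 were higher past 1.5-fold and 0 were lower, with a median of 0.41. They ranged from Il6 at -0.41 (-0.53 to -0.28) to Il1b at 3.35 (3.26 to 3.45). The other 5 past the fold were Il1a, Ccl2, Ccl5, Cxcl2 and Cxcl10. In border macrophage-like cells 3 of 14 such genes were higher and 2 lower, with a median of 0.07. In neutrophil-like cells 2 of 13 were higher and 4 lower, with a median of -0.24, where 9.02% of all genes were higher and 22.3% lower and the median of all genes was -0.17.

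Of the 7 gene lists, clock genes had the median farthest from 0 in microglia-like cells, and Tsc22d3, Klf9 and Per1 also follow the time of day. Of 18 clock genes, 10 reached 5 CPM in microglia-like cells, 1 was higher and 6 were lower past 1.5-fold, with a median log2 ratio of -1.28. Hlf, an output factor of the clock, held 421 UMIs in vehicle and 11 in corticosterone, a log2 ratio of -6.40 (-7.42 to -5.55). Dbp and Tef, its relatives, stood at -3.63 and -2.72, and Arntl, which peaks in the opposite phase, at 0.65 (0.47 to 0.84). The part of the time of day in the values of Tsc22d3, Klf9 and Per1 was not tested. Of 24 paralogues of the 10 genes, 17 reached the level, with 0 higher and 4 lower past 1.5-fold and a median of 0.10. The relatives of Tsc22d3 stood far from it, Tsc22d1 at 0.15, Tsc22d2 at -0.27 and Tsc22d4 at 0.13.

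**Figure D4:**
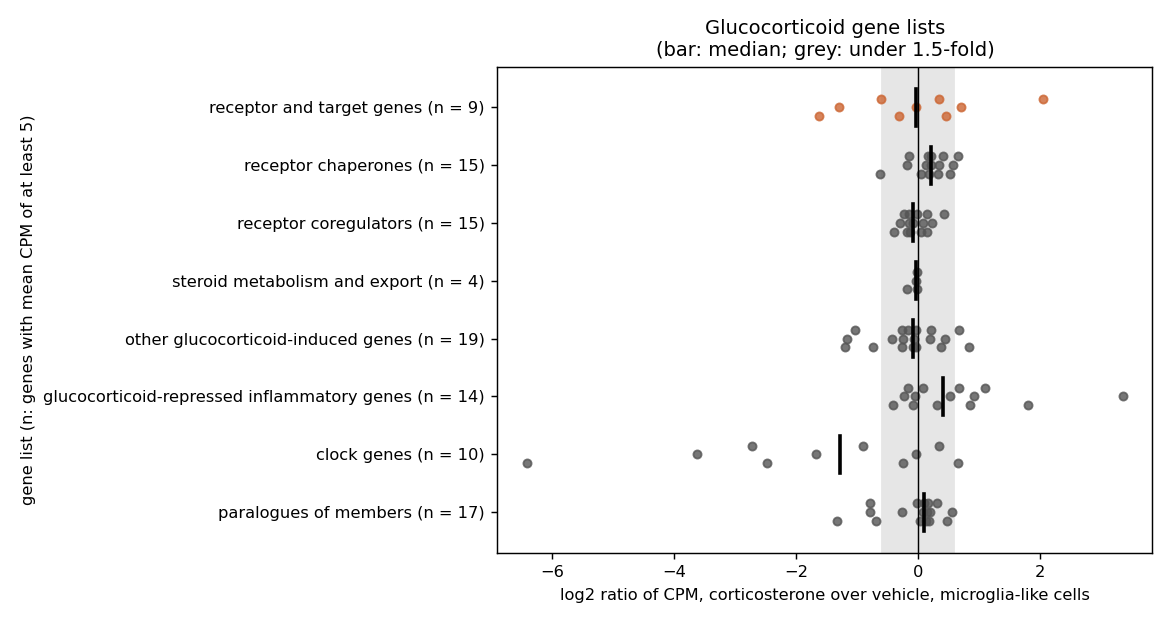
Log2 ratio of CPM, corticosterone over vehicle, in microglia-like cells for each gene with a mean CPM of at least 5, by gene list, with the median as a bar and differences under 1.5-fold in grey. Clock genes have a median of -1.28 and glucocorticoid-repressed inflammatory genes one of 0.41, while the receptor and target genes have -0.03.

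Over the 6 sums of 3 classes and 2 libraries, the genes most like each of 3 members were ranked by the distance of their centred log2 levels among 6400 genes. Nr3c1 was most like Bcl7b, Wls and Scamp1 (distances 0.08, 0.08 and 0.09), and Fkbp5 was most like Camta2, Zfp384 and Elp2 (0.08, 0.08 and 0.10). For Tsc22d3 the nearest lay farther away and were H2bc4, Lst1 and Ankrd12 (0.57, 0.57 and 0.73). H2bc4 stood at 107 and 33.2 CPM in microglia-like cells and at 162 and 189 CPM in neutrophil-like cells. Within microglia-like cells at 1000 UMIs, Fkbp5 and Sgk1 were found about as often with Tsc22d3 as without it. In vehicle, Fkbp5 was found in 4.87% (3.40 to 6.74%) of cells with a Tsc22d3 UMI and 4.8% (4.30 to 5.34%) of those without, and Sgk1 in 66.8% and 66.0%. In corticosterone Fkbp5 was found in 5.84% (4.00 to 8.18%) and 4.59% (4.25 to 4.94%). Of the 3 targets set beside Tsc22d3 here, Dusp1 had intervals apart, since Dusp1 was found in 81.5% (78.0 to 84.8%) of corticosterone cells with Tsc22d3 and 73.8% (73.1 to 74.5%) of those without, against 73.4% and 71.2% in vehicle.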

How the data were processed

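Sorted cells of 2 groups went into GEXSCOPE (Singleron) single-cell libraries, per the labels' protocols. The authors deposited raw UMI counts per gene and barcode, and bcl2fastq 2.19 and the build GRCm38 are named in the submitters' processing notes. The aligner, counter, annotation and cell caller are not given in the sources used here. Repeated symbols (52) were read from the row listed earliest. Cells with at least 500 UMIs, 300 genes and at most 20% mitochondrial UMIs were kept, which removed 55 vehicle and 230 corticosterone barcodes. Scrublet called 0 doublets in either library and was taken not to have worked, so none were removed. Counts were log-scaled to 10000 per cell, and 2000 variable genes, 30 components and 15 neighbours entered Leiden clustering at resolution 0.5 (scanpy 1.11.5). A cluster took a class name from at least 3 markers found in 10% of its cells at 2 times their level elsewhere, or, failing that, was called microglia-like where microglia markers reached 0.5 times their overall level. A cluster stayed unnamed where its leading 10 genes held more markers of another class, or where its relative depth was under 33.3% with none of its own. UMIs were summed per class and library, and log2 ratios carry exact conditional binomial intervals (Poisson for levels, Clopper-Pearson for shares). UMIs without replicate libraries give counting error only. The ratio and its interval were tested on simulated data. edgeR 4.0.16 and DESeq2 1.42.0 gave scaling factors as alternatives. All 10 members are named, with the extremes of 7 gene lists in microglia-like cells, the 3 genes most like Nr3c1, Fkbp5 and Tsc22d3, and other list genes chosen after their values were seen. The members and lists were chosen with earlier results of these data known.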

Additional observations from a re-analysis of the deposited data

Results flagged for a closer look

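Hsd11b1 went opposite ways in 2 classes, with counting intervals that both leave out 0. Its log2 ratio of corticosterone over vehicle was -2.81 in microglia-like cells, from 19 and 6 UMIs, and 0.89 in neutrophil-like cells, from 142 and 269 UMIs. The difference between the classes was not tested, since each had 1 library per group, and the level in microglia-like cells was under 1 CPM in both. Neutrophil markers in microglia-like cells moved the same way, at 946 and 691 CPM summed, with 9 of 11 lower by 1.5-fold, and their part in the value was not tested.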

How the results depend on the processing

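No paired analysis was possible because each group had 1 library. Of the values for single genes under an alternative, 266 stayed inside their counting interval, 80 lay outside it, and 1 that had been past the fold changed sign, Hsd11b1 in neutrophil-like cells of 2000 to 5000 UMIs, at -0.28. Values that had not been counted as past the fold changed sign too in neutrophil-like cells. Those were Nr3c2 at 1.21 in cells of 2000 to 5000 UMIs, Dusp1 at -0.43 in cluster 8 of resolution 1.0, Sult1a1 at 0.23 in cluster 7, and Fkbp4 at -1.57 in cells with fewest markers of other classes, -1.01 in cells of 2000 to 5000 UMIs and -0.96 in cluster 8. Fkbp5, near 0 in all 3 classes, changed sign under some settings in each. In microglia-like cells the log2 ratio ranged from -1.69 to -1.17 for Tsc22d3, from 1.61 to 2.16 for Klf9, from 0.60 to 0.84 for Sult1a1, from -1.38 to -1.01 for Nr3c2 and from -0.65 to -0.26 for Sgk1. The count of genes higher past the fold in microglia-like cells was 1 with 2-fold as the threshold, with a mean level of 20 CPM or more and in cells with fewest markers of other classes. The count of lower genes there, 3, was 2 at resolution 1.0, over all cells with no class, with edgeR TMM factors, with DESeq2 size factors, at 2-fold and at 20 CPM, and 4 with no filter on low levels. In border macrophage-like cells the count of higher genes was 1 at 2-fold, at 20 CPM, in cells with fewest markers of other classes, under a class rule per cell and with each cell weighted equally, and the count of lower genes was 1 at 2-fold. In neutrophil-like cells the count of higher genes was 0 at 2-fold and in cells with fewest markers of other classes, 2 with edgeR TMM factors, DESeq2 size factors, no filter on low levels, cells of 2000 to 5000 UMIs and equal weights, and 3 in cluster 7 of resolution 1.0. The count of lower genes there was 3 in cells with fewest markers of other classes, in cells of 2000 to 5000 UMIs and with equal weights, 2 in cluster 7 and without the filter, and 4 in cluster 8. The causes were not tested. Equal weights, the single neutrophil-like clusters, the clustering with its unnamed cluster added back and the class without its interferon-led cluster were chosen after seeing the data. Few UMIs limit Klf9 and Nr3c2 outside microglia-like cells, less so Nr3c2 in border macrophage-like cells (139 and 49 UMIs). They limit Hsd11b1 outside neutrophil-like cells, which held 142 and 269, and Klf9 in single microglia-like clusters.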
